A study of Mus musculus with 16 samples.

Results

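The RNAs of the genes that encode the subunits of Polycomb repressive complex 2 (PRC2), other than *Jarid2*, were followed in maps of RNA–chromatin contacts from mouse embryonic stem cells (mESCs). The members were fixed by gene name: *Ezh1*, *Ezh2*, *Eed*, *Suz12*, *Rbbp4*, *Rbbp7*, *Mtf2*, *Phf19*, *Phf1* and *Aebp2*. Every line whose RNA carried one of these names was taken. Of the 10 genes, 9 had a listed RNA–DNA pair in at least 1 table and 8 had pairs in both, among 12080 RNA names in all. They held 1386 of the 1305107 pairs of Input and 890 of the 1415135 pairs of H3K27me3-RADIP. *Phf1* RNA was absent from both tables and *Phf19* RNA was absent from Input.

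In RADIP, RNA and the chromatin DNA close to it are ligated to the ends of a bridge adaptor, and the chimeras are pulled down with an antibody, here against trimethylated lysine 27 of histone H3 (H3K27me3). The cells were of the mESC line PGK12.1, grown with leukemia inhibitory factor and fixed with 1% formaldehyde. H3K27me3-RADIP and Input came from the same cells with the same fixation, and Input was lysate set aside before the antibody was added. The labels list 8 libraries per condition, which the authors merged into 1 table each. By the study's methods there were fewer biological replicates than libraries, and which libraries belong together is not given in the sources used here. No replicate error can be given, and no test between the conditions rests on measured replicate variation. Every difference given here compares those 2 merged tables, and every interval is a 95% interval for counting error only.

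PRC2 is the enzyme complex that methylates lysine 27 of histone H3, a mark of silent developmental genes in embryonic stem cells. EZH2 or its relative EZH1 carries the methyltransferase, EED binds the mark already made and stimulates the enzyme, SUZ12 is the scaffold, and RBBP4 and RBBP7 bind histones. The Polycomb-like proteins PHF1, MTF2 and PHF19 and, in an alternative form of the complex, AEBP2 with JARID2 guide it to chromatin. The tables report where the RNA of these genes lay, not where the proteins bound, and a listed pair does not tell RNA still being made at its gene from RNA held there for another reason.

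Each table line is a single ligated pair, with a tag from the RNA and a tag from the DNA. The authors assigned DNA tags to 25-kb bins and kept only combinations of an RNA and a bin with a *q*-value of at most 0.1. The members had 55 such combinations in Input, with a median of 15 pairs, and 51 in H3K27me3-RADIP, with a median of 13. None held fewer than 8 pairs, so a bin that is not listed may still have had a few. For this reason no fold was formed where a table listed nothing. Shares, distances and ratios below are of listed pairs. Pairs in bins that a table does not list are missing from them, and the intervals do not cover this. All member pairs joined tags of the same chromosome, and the RNA tags all lay on the strand of their gene. This holds for listed combinations and says nothing of scattered *trans* pairs, which the limit on *q*-values may have removed.

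As a check of the cell type, the embryonic stem cell factors *Esrrb* and *Tfcp2l1* were abundant, with 2388 and 441 pairs in Input and 2500 and 484 in H3K27me3-RADIP. Of 10 embryonic stem cell markers 5 were listed in both tables, and *Pou5f1*, *Nanog*, *Tdgf1* and *Prdm14* were in neither. Of the rest, *Zfp42* had 130 and 98 pairs, *Lin28a* 20 and 15, *Klf4* 13 and 13, and *Sox2* had 8 in H3K27me3-RADIP alone. Markers of other lineages were sparse, but *Lin28a*, *Klf4* and *Sox2* lay below the endoderm marker *Gata4* (29 and 41). The check therefore rests on the few abundant RNAs. The 5 fibroblast markers summed to 7 pairs in Input against 17 in H3K27me3-RADIP, the 5 endoderm markers to 47 and 78, the 4 neural markers to 11 and 33, and the 4 mesoderm markers to 0 and 11. Of these lists *Sox17*, *Foxa2*, *T*, *Mixl1*, *Eomes*, *Sox1*, *Neurog2*, *Col1a2*, *Col3a1* and *Thy1* were not listed at all. Their part in the member values was not tested.

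The members whose start lies in a bin listed in a single table are *Ezh2* and *Phf19*. The 250 bases before the RefSeq start of each are shown for that reason. The RefSeq start lies inside the GENCODE gene, so that the whole *Ezh2* stretch and a part of the *Phf19* stretch lie inside the gene as placed here. The stretches are RefSeq promoters of build GRCm38.p6, read 5′ to 3′ on the strand of the gene, with CG dinucleotides in capitals.
Ezh2, chr6:47595031-47595280, minus strand: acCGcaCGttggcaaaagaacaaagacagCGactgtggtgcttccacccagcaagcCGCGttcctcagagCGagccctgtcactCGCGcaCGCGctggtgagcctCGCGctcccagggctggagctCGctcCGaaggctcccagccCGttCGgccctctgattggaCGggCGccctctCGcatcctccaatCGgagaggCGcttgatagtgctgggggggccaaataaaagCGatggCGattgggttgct
Phf19, chr2:34913977-34914226, minus strand: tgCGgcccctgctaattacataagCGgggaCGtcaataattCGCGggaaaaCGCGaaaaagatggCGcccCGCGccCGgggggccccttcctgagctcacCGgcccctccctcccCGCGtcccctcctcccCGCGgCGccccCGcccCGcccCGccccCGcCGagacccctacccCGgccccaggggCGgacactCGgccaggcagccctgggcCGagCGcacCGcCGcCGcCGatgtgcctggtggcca
The *Ezh2* promoter has 23 CG dinucleotides and a GC content of 63.6%, and the *Phf19* promoter has 31 and 75.2%. At least as many CG dinucleotides were found in 13.3% and 5.19% of the 32851 RefSeq promoters of this length, whose median was 6.00. All 10 members matched the promoter table. The other members had between 12 and 37, except *Aebp2*, whose promoter at the first of its 3 starts has 1 (GC content 46.4%).

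The 8 member RNAs found in both tables had fewer pairs in H3K27me3-RADIP than in Input. Together they went from 1386 to 869 pairs. After scaling by trimmed mean of M-values (TMM) over the protein-coding RNAs (pcRNAs) found in both tables, this was a log2 ratio of H3K27me3-RADIP over Input of -0.706, with an interval from -0.830 to -0.582, or 1.63-fold fewer pairs. The ratio was below 0 in 8 of 8 members, with a median of -0.747, while the median over all 8158 shared pcRNAs was -0.00866. *Eed*, *Mtf2*, *Ezh2*, *Suz12*, *Rbbp4* and *Ezh1*, 6 of 8, passed a log2 ratio of -0.5, which 21.9% of the shared pcRNAs also passed (19.9% of those with at least 50 pairs in the tables together). In 5 of them, all but *Ezh1*, the counting interval also lay below 0, which held for 14% of the shared pcRNAs. No member passed 0.5 in the other direction, where 20.2% of the shared pcRNAs lay. *Rbbp7* and *Aebp2* were called in neither direction.

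**Figure D1:**
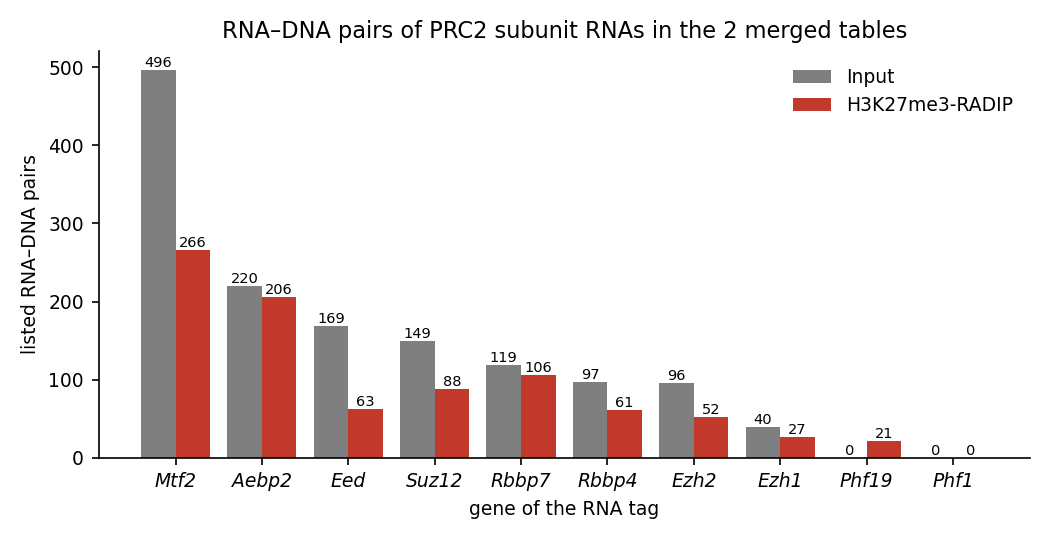
Listed RNA–DNA pairs (vertical axis, number of pairs) of each PRC2 subunit RNA in the merged Input table (grey) and the merged H3K27me3-RADIP table (red), with the number above each bar. *Mtf2* has the most pairs in both tables (496 and 266), *Phf19* is listed in H3K27me3-RADIP alone (21) and *Phf1* in neither.

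**Figure D2:**
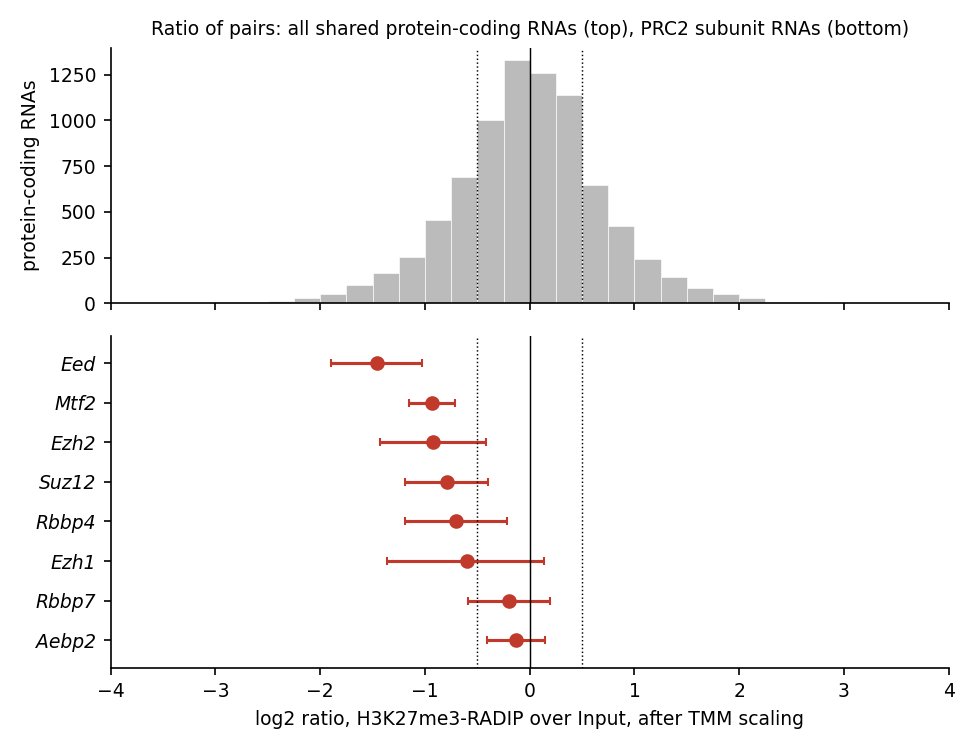
Top, number of shared pcRNAs per step of 0.25 in the log2 ratio of pairs, H3K27me3-RADIP over Input, after TMM scaling. Bottom, the 8 PRC2 subunit RNAs found in both tables, with 95% counting intervals as bars. Solid and dotted lines mark 0 and the limits of -0.5 and 0.5, and all 8 points lie left of 0, from -1.46 for *Eed* to -0.13 for *Aebp2*.

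The calls rest on size alone. In an exact negative binomial test adjusted over all shared pcRNAs, with the same limit on size, 4 members were called lower at an assumed coefficient of variation of 0.1, as were 7.51% of the shared pcRNAs, and 0 at 0.2, against 0.797%, so the calls depend on replicate variation that the merged tables do not show. Pairs that repeated the positions of both tags made up 4.47% of the member pairs in Input against 11% in H3K27me3-RADIP (6.75% and 9.71% over all pcRNAs). With each such pair counted once, 6 members were called lower, as were 21.8% of the shared pcRNAs.

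The catalytic subunit is encoded by *Ezh2* or *Ezh1*. *Ezh2* (ENSMUSG00000029687.16, chr6:47530139-47595341 of mm10, minus strand, 65.2 kb) had 96 pairs over 4 bins in Input against 52 over 4 bins in H3K27me3-RADIP, a log2 ratio of -0.92 (-1.43 to -0.42). Of its DNA tags 69.8% lay inside the gene in Input and 50% in H3K27me3-RADIP, differing by -19.8 points (-35.3 to -3.42).

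The difference was uneven along the *Ezh2* gene. The last bin of the gene held 27 pairs in Input against 23 in H3K27me3-RADIP, and the middle bin 26 and 9. The bin of the *Ezh2* start held 26 pairs in Input and was not listed in H3K27me3-RADIP. In its place the next bin, centred 17.2 kb before the start, was listed with 9 pairs (*q* = 0.0123). Beyond the gene end, a bin without a protein-coding start held 17 and 11 pairs. The call of *Ezh2* was lost with DNA tags outside the gene alone (-0.46, from -1.28 to 0.36), and at a *q*-value limit of 0.01 its ratio was -1.52.

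*Ezh1* (ENSMUSG00000006920.14, chr11:101191115-101226463, minus strand, 35.3 kb), the other methyltransferase gene, was the sparsest of the shared members. It had 40 pairs over 3 bins in Input against 27 over 2 bins in H3K27me3-RADIP, and its log2 ratio of -0.60 had an interval from -1.36 to 0.14, which holds 0. The bin over its end, where *Ccr10* also starts, had 17 and 19 pairs, and the bin over its middle 15 and 8. Its remaining bin in Input, over *Vps25* and *Wnk4*, had 8 pairs and was not listed in H3K27me3-RADIP. The call of *Ezh1* was lost on scaling by *cis* pairs within 25 kb (-0.44), with intronic RNA tags alone (-0.37) and in combinations listed in both tables (-0.19).

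*Eed*, the gene of the subunit that reads the mark, had the lowest ratio of the members. *Eed* (ENSMUSG00000030619.10, chr7:89954654-89980983, minus strand, 26.3 kb) had 169 pairs over 7 bins in Input against 63 over 3 bins in H3K27me3-RADIP, a log2 ratio of -1.46 (-1.90 to -1.03) or 2.74-fold fewer. Of the 8158 shared pcRNAs, 240 (2.94%) had a lower ratio. The bin that holds most of the gene went from 87 to 44 pairs and the bin of its start from 24 to 11.

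Outside the *Eed* gene 5 bins were listed in Input and 1 in H3K27me3-RADIP. The bin of the *Hikeshi* start, 43.5 kb downstream of the *Eed* start, held 25 pairs in Input (*q* = 2.89e-13) and was not listed in H3K27me3-RADIP. The bin of the *Picalm* start, 157 kb upstream, held 8 pairs in both tables. With DNA tags outside the gene alone, the ratio of *Eed* was -2.32. In H3K27me3-RADIP 65.1% of its listed DNA tags lay inside the gene, against 47.3% in Input, differing by 17.7 points (3.31 to 30.7). Outside bins that are not listed add no tags to this ratio or share, and the interval does not cover this.

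The listed RNA tags of *Eed* also differed in their place along the gene, as seen after the values were known. Tags whose DNA partner lay in a bin that is not listed are missing from these counts. In the last part of the gene, when its length was cut into 3 equal parts, 50 Input pairs and 7 H3K27me3-RADIP pairs had their RNA tag. Intron 9 (chr7:89956414-89962255, 5.84 kb, 22.2% of the gene) held 35 and 3 RNA tags, or 20.7% and 4.76% of the *Eed* pairs. The first 2 introns held 25 and 30 tags in Input and 12 and 15 in H3K27me3-RADIP.

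*Suz12*, the scaffold gene (ENSMUSG00000017548.15, chr11:79993106-80034123, plus strand, 41.0 kb), had 149 pairs in Input against 88 in H3K27me3-RADIP, a log2 ratio of -0.79 (-1.19 to -0.40). Its listed contacts lay downstream less often in H3K27me3-RADIP. The DNA tag lay downstream of the RNA tag, in the sense of transcription, in 77.9% of the pairs in Input against 43.2% in H3K27me3-RADIP, differing by -34.7 points (-46.2 to -21.9). Over all pcRNAs the shares were 61.1% and 60.1%. Bins listed in 1 table alone add to the *Suz12* share of that table only, which the interval does not cover.

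The bins of *Suz12* hold these same pairs. The 2 bins over its body and end went from 49 to 27 and from 44 to 19 pairs, while the bin of its start held 12 and 13 and the bin of the *Utp6* start, 30.6 kb upstream, held 10 and 12. The 3 bins beyond the gene end, with 17, 9 and 8 pairs in Input, the middle bin over the starts of *Crlf3* and *Atad5* and the farthest over that of *Rnf135*, were not listed in H3K27me3-RADIP. Listed there alone were bins 55.6 kb and 331 kb upstream, with 8 and 9 pairs (*q* = 0.0581 and 0.0152).

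The histone-binding subunit genes *Rbbp4* and *Rbbp7* differed in their contacts. *Rbbp4* (ENSMUSG00000057236.10, chr4:129307100-129335370, minus strand, 28.3 kb) had 97 pairs over 6 bins in Input against 61 over 3 bins in H3K27me3-RADIP, a log2 ratio of -0.70 (-1.19 to -0.22). Its 3 farthest bins, with 13, 9 and 8 pairs in Input, were not listed in H3K27me3-RADIP. The share of its pairs over 100 kb went from 17.5% to 0% of the listed pairs, which leaves out any far pairs in bins that are not listed. The bin at the end of the gene held 30 and 29 pairs, and the next bin, over the *Sync* start, 9 and 17, while the bin of its own start held 28 and 15.

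For *Rbbp4* the call rested on the bins listed in Input alone. In the 3 bins listed in both tables it had 67 and 61 pairs, a log2 ratio of -0.08 (-0.61 to 0.44). The call was also lost at a *q*-value limit of 0.01 (-0.24) and with intronic RNA tags alone (-0.32).

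*Rbbp7* (ENSMUSG00000031353.13, chrX:162760402-162779092, plus strand, 18.7 kb) had 119 pairs in Input against 106 in H3K27me3-RADIP, a log2 ratio of -0.20 (-0.59 to 0.19). The totals were close, but the places of the DNA tags differed. DNA tags before the gene went from 5 to 38 pairs, and those beyond its end from 44 to 39. Its start bin went from 64 to 36 pairs and the bin of its end from 46 to 22, while the bin just before the gene, which Input did not list, held 20 pairs in H3K27me3-RADIP (*q* = 2.13e-10). A bin farther upstream with 8 pairs and the bin of the *Txlng* start, 77.1 kb downstream, with 9 pairs were also listed in H3K27me3-RADIP alone.

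Inside the *Rbbp7* gene lay 58.8% of its DNA tags in Input and 27.4% in H3K27me3-RADIP, differing by -31.5 points (-42.8 to -18.6). Pairs within 25 kb went from 89.1% to 53.8%, differing by -35.3 points (-45.7 to -23.8), and downstream pairs from 81.5% to 54.7%. In the 3 bins listed in both tables *Rbbp7* had 119 and 69 pairs, a log2 ratio of -0.73 (-1.18 to -0.29), and with DNA tags outside the gene the ratio was 0.35 (-0.18 to 0.90).

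*Mtf2*, a Polycomb-like gene, held the largest part of the member pairs, 35.8% in Input and 29.9% in H3K27me3-RADIP. *Mtf2* (ENSMUSG00000029267.17, chr5:108065674-108109004, plus strand, 43.3 kb) had 496 pairs over 15 bins in Input against 266 over 17 bins in H3K27me3-RADIP, a log2 ratio of -0.93 (-1.15 to -0.71) or 1.91-fold fewer. Per kb of gene it had 11.4 and 6.14 pairs, while the other members listed had 1.13 to 6.42 in Input and 0.764 to 5.67 in H3K27me3-RADIP. The 3 bins over its gene went from 55 to 27, from 144 to 49 and from 112 to 35 pairs. In the 8 bins listed in both tables the ratio was -1.18.

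The listed long-range contacts of *Mtf2* did not follow the lower total. The share of its listed pairs over 100 kb was 15.1% (12.2 to 18.5) in Input and 37.2% (31.6 to 43.2) in H3K27me3-RADIP. These were 75 and 99 pairs, and the shares differed by 22.1 points (15.5 to 28.7). They also lay on different sides of the gene. In Input 51 of the 75 DNA tags lay before the gene and 24 beyond its end, and in H3K27me3-RADIP 15 of the 99 lay before and 84 beyond. Far pairs in bins that a table did not list are missing from these counts. The difference in share therefore also depends on which bins were listed, which its interval does not cover.

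More than 150 kb downstream of the *Mtf2* start, a limit chosen after the values were seen, Input listed 2 bins with 18 pairs and H3K27me3-RADIP listed 9 other bins with 84 pairs. The latter reached 622 kb and covered the starts of *Dr1*, *Atp5k*, *Mfsd7a*, *Cplx1*, *Slc26a1* and *Fgfrl1*, among others. Of these 9 bins 6 held 8 pairs each (*q* = 0.0726), close to the limit of the tables, and the bin over *Atp5k* and *Mfsd7a* held 13 (*q* = 5.94e-05). In 4 of the 9 bins, that one included, *Mtf2* was the only RNA listed. The 84 pairs had 71 distinct combinations of tag positions and the 18 pairs had 16. Closer to the gene, the bin over *Tmed5* and *Ccdc18* held 35 and 14 pairs, the bin over *Rpl5* 21 and 10, and the bin over *Fam69a* 10 and 14. Of 2 bins without a protein-coding start just before the gene, the nearer held 31 and 13 pairs and the farther 19 and 20.

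**Figure D3:**
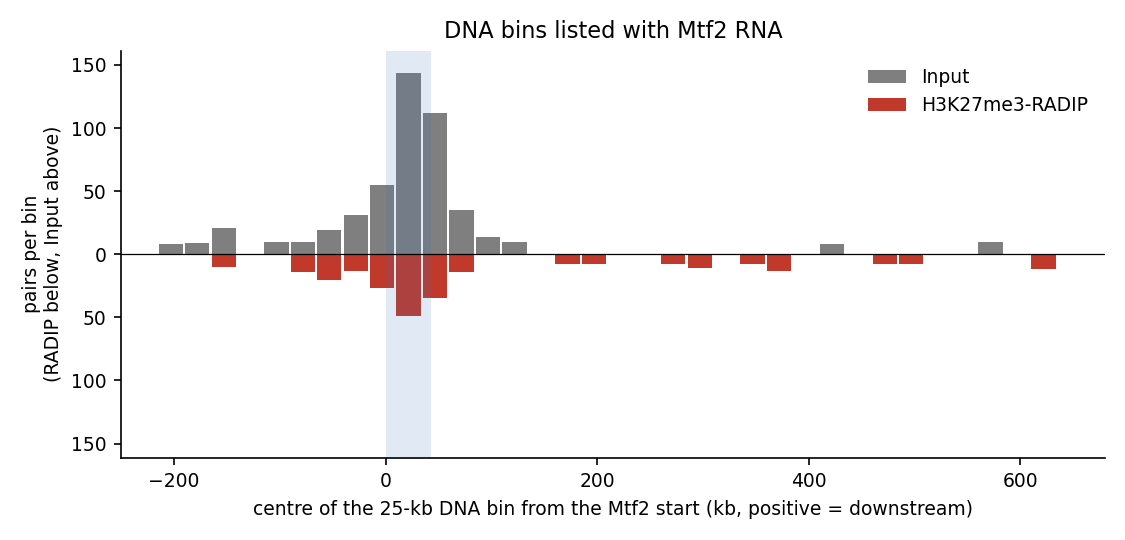
Pairs of *Mtf2* RNA per 25-kb DNA bin (vertical axis, number of pairs) against the distance of the bin centre from the *Mtf2* start in kb. Input is drawn upwards in grey and H3K27me3-RADIP downwards in red, with the gene shaded. The bins over the gene are lower in H3K27me3-RADIP (49 against 144 in the highest), and 9 bins between 172 and 622 kb are listed there against 2 in Input.

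The other Polycomb-like genes were nearly or wholly absent. *Phf19* (chr2:34893757-34914026, minus strand, 20.3 kb) was not listed in Input and had 21 pairs in H3K27me3-RADIP. They lay in the 2 bins over its own gene, with 11 pairs at its end (*q* = 0.000205) and 10 at its start (*q* = 0.00103), and their median distance was 0.934 kb. Of the 21 RNA tags 16 were intronic, and the 21 pairs had 18 distinct positions. *Phf1* (chr17:26933052-26937908, plus strand, 4.86 kb), the shortest member, had no combination listed in either table.

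*Aebp2*, the gene of a cofactor that joins PRC2 with JARID2, was the member closest to equal. *Aebp2* (ENSMUSG00000030232.18, chr6:140622663-140678472, plus strand, 55.8 kb) had 220 pairs over 10 bins in Input against 206 over 8 bins in H3K27me3-RADIP, a log2 ratio of -0.13 (-0.41 to 0.15). Its start bin held 19 and 36 pairs, and the 3 further bins over its gene 63 and 50, 60 and 53, and 19 and 18. Outside the gene the bins centred 89.8 kb downstream and 85.2 kb upstream of its start each held 8 pairs in Input, against 16 and 15 in H3K27me3-RADIP. The bin 35.2 kb upstream held 16 and 10, and the bin 60.2 kb upstream, with 11 pairs in Input, was not listed in H3K27me3-RADIP. With DNA tags outside the gene the ratio was -0.18. The bin of the *Plekha5* start, 210 kb upstream, had 8 pairs in Input and was not listed in H3K27me3-RADIP.

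**Figure D4:**
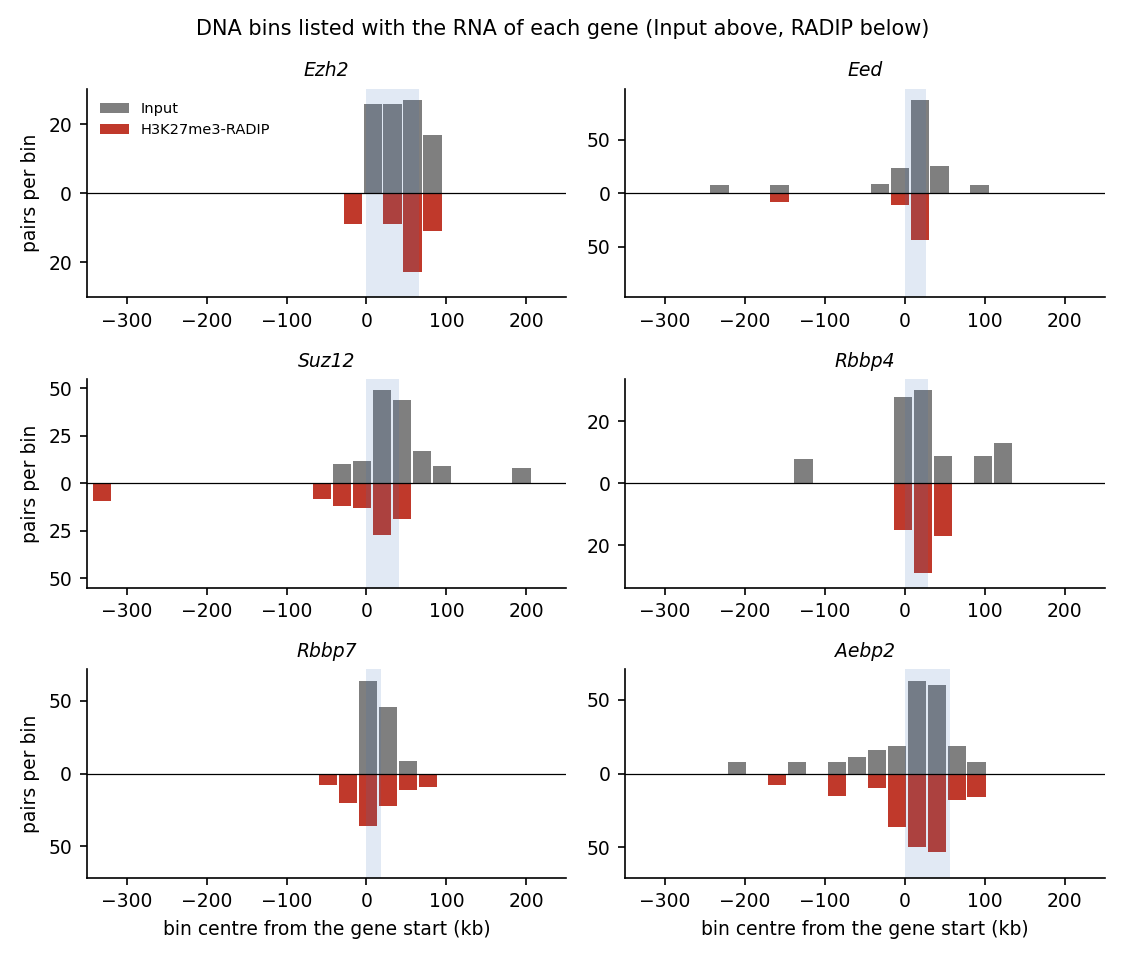
Pairs per 25-kb DNA bin (vertical axes, number of pairs, scaled per panel) against the distance of the bin centre from the gene start in kb, for 6 PRC2 subunit RNAs. Input is drawn upwards in grey, H3K27me3-RADIP downwards in red, and the gene is shaded. The start bin of *Ezh2* (26 pairs) is listed in Input alone, the bins after the end of *Suz12* have no counterpart in H3K27me3-RADIP, and *Rbbp7* has 3 further bins in H3K27me3-RADIP.

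Bins shared by the tables carried most of the member pairs. Over the 8 members, 33 combinations of an RNA and a bin were in both tables, with 1142 pairs in Input against 714 in H3K27me3-RADIP, and 23 of them were lower in H3K27me3-RADIP after scaling. A further 22 combinations with 244 pairs were in Input alone, and 16 with 155 pairs in H3K27me3-RADIP alone. The same counts over all pcRNAs are not given here, so these numbers do not set the members apart from other RNAs. With all 9 listed members, bins that touch the gene of the RNA held 967 of the pairs in Input against 564 in H3K27me3-RADIP, and bins outside it held 419 and 326.

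Distances were shorter over the member pairs than over all pcRNA pairs. The latter weigh each RNA by its number of pairs, and no comparison with genes of like length was made. The median distance between the tags was 15.9 kb (14 to 17.7, exact binomial interval of the median) over the member pairs in Input and 18.9 kb (16.6 to 21.1) in H3K27me3-RADIP, while the medians over all pcRNA pairs were 44.4 and 68.8 kb. Pairs over 100 kb made up 9.88% and 15.2% of the member pairs, differing by 5.28 points (2.51 to 8.19), and 36.4% and 43.7% of all pcRNA pairs. The difference among the members came from *Mtf2*. Without it the shares differed by -1.20 points (-3.64 to 1.39), and with the same weight for each shared member the difference was 1.54 points.

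Member by member, 3 of 8 had a longer median distance in H3K27me3-RADIP, as had 69.5% of the pcRNAs with at least 10 *cis* pairs in each table. The 3 were *Mtf2* (19.6 and 53.9 kb), *Rbbp7* (7.11 and 20.7 kb) and *Ezh2* (15.5 and 18.2 kb). It was shorter for *Ezh1* (8.15 and 3.41 kb), *Eed* (13.5 and 8.29 kb), *Rbbp4* (14.7 and 9.83 kb), *Suz12* (24.4 and 20.9 kb) and *Aebp2* (18.6 and 17.0 kb). The median ratio of these distances was 0.886 over the members and 1.34 over the pcRNAs. The farthest pair of a member was one of *Mtf2*, at 576 kb in Input against 625 kb in H3K27me3-RADIP.

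**Figure D5:**
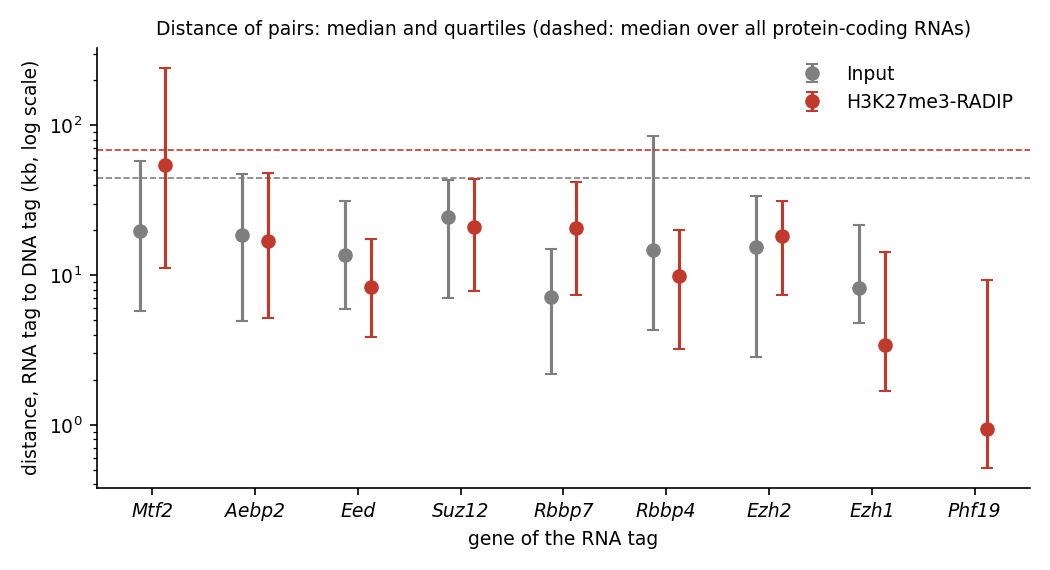
Distance between RNA tag and DNA tag (vertical axis, kb, log scale) per PRC2 subunit RNA. Points are medians and bars run from the lower to the upper quartile over the pairs, in Input (grey) and H3K27me3-RADIP (red), and dashed lines give the medians over all pcRNA pairs (44.4 and 68.8 kb). *Mtf2* in H3K27me3-RADIP (53.9 kb) is the only member median above the Input line.

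Most RNA tags of the members were intronic, as the authors labelled them. The share was 79.0% (76.8 to 81.1) in Input and 78.7% (75.8 to 81.2) in H3K27me3-RADIP, differing by -0.353 points (-3.84 to 3.04), and it was 88.9% and 89.6% over all pcRNAs. Coding sequence gave 7.22% and 7.08% of the member tags, and the 3′ untranslated region 5.77% and 7.30% (3.10% and 2.95% over all pcRNAs). For *Mtf2* the intronic share in Input (85.9%) was near the part of the gene that lies outside any annotated exon (86.9%), as for *Suz12* (85.9% and 87.9%).

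The labels and the gene models compared here come from different GENCODE releases. In Input the intronic share lay below the part of the gene outside exons, with an interval that leaves it out, for *Ezh1*, *Rbbp4*, *Rbbp7* (71.4%, from 62.7 to 78.8, against 84.4%) and *Aebp2* (72.7%, from 66.5 to 78.2, against 82.3%). *Ezh1* had 60.0% intronic tags (44.6 to 73.7) in a gene of which 79.0% lies outside exons, and 13 of its 40 tags lay in the 3′ untranslated region. *Rbbp4* had 52.6% (42.7 to 62.2) against 69.1% of the gene, with 21 of 97 tags in the 3′ untranslated region. In H3K27me3-RADIP the intronic share of *Rbbp4* was 68.9%, 16.3 points higher (0.529 to 30.5), and that of *Rbbp7* went from 71.4% to 84.9%, 13.5 points higher (2.60 to 23.8). *Ezh2* went the other way, from 86.5% to 73.1%, differing by -13.4 points (-27.8 to -0.292), with 5 of 96 and 11 of 52 tags labelled as exon of no coding or untranslated part.

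The first intron of *Mtf2* spans 14.9 kb, 34.3% of the gene, and held a like share of the tags, 178 in Input and 105 in H3K27me3-RADIP (35.9% and 39.5%). In *Aebp2* it spans 10.6 kb, 19.0% of the gene, and held 41.8% and 38.3%. In *Suz12* it spans 4.92% of the gene and held 7.38% and 12.5%, and intron 4, with 20.4% of the gene, held 25.5% and 17%. Among the *Mtf2* pairs over 100 kb, 30 of 75 and 44 of 99 tags lay in this intron.

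Seen from the DNA side, the bins of the 10 member starts held 329 pairs in Input against 232 in H3K27me3-RADIP, of any RNA. The RNA of the gene itself gave 228 and 148 of these. The bin of the *Ezh2* start held 26 pairs of *Ezh2* and 16 of its neighbour *Cul1* in Input and was not listed in H3K27me3-RADIP. The bin of the *Phf19* start, by contrast, was not listed in Input and held 11 pairs of *Dab2ip*, 10 of *Phf19* and 8 of *Ggta1* in H3K27me3-RADIP. Both promoters are those printed above.

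Other RNAs also reached some member starts. Over *Phf1*, whose own RNA was not listed, Input had 10 pairs of *Kifc5b*, 9 of *Ergic1* and 8 of *Crebrf*, and H3K27me3-RADIP had 8 pairs of *Kifc5b*. Over *Aebp2*, *Plekha5* gave 28 and 46 pairs beside the 19 and 36 of *Aebp2*. Over *Rbbp7*, *Txlng* gave 21 and 11. The start bins of *Eed*, *Suz12*, *Rbbp4* and *Mtf2* were listed with their own RNA alone in both tables, and that of *Ezh1* with none.

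The RNAs of neighbouring genes give the setting of these values. Within 500 kb of a member start 47 RNAs had at least 20 pairs in the tables together, and 45 of them were in both. Of these 15 lay at or below -0.5 (21.9% of all shared pcRNAs did) and 8 at or above 0.5 (20.2%), with a median log2 ratio of -0.210. Around *Ezh2*, 5 of 6 were lower with a median of -1.17, below the -0.92 of *Ezh2* itself. They were *Pdia4* (-1.94), *Cul1* (228 and 104 pairs, -1.16) and the zinc finger genes *Zfp398* (-1.17), *Zfp777* (-1.47) and *Zfp282* (-0.57). The interval of *Zfp282*, from -1.83 to 0.63, holds 0. A further zinc finger gene, *Zfp746* (-0.47), was called in neither direction. Around *Suz12*, 4 of 9 were lower and 1 was higher. Around *Rbbp4*, 1 of 12 was lower and 2 were higher, with a median of -0.0750.

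The neighbourhoods of *Eed* and *Mtf2* were mixed. Near *Eed*, *Picalm* had a ratio of -0.72 and *Me3* of 0.97, and *Crebzf*, with 28 pairs in Input, was not listed in H3K27me3-RADIP. Near *Mtf2*, *Evi5* (-0.87) and *Rpl5* (-1.07) were lower and *Glmn* (1.68) and *Pigg* (0.97) higher, while *Rpap2* (-0.17) and *Pcgf3* (-0.28) were called in neither direction. The only such neighbour of *Aebp2*, *Plekha5*, had 900 and 913 pairs, a ratio of -0.01.

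The RNAs whose sets of bins in Input were most like those of a member were its neighbours. The share of bins in common, out of the bins of either RNA, was 0.429 for *Rbbp7* and *Txlng* (3 of 7), 0.4 for *Eed* and *Picalm* (4 of 10), 0.375 for *Rbbp4* and *Yars* (3 of 8), and 0.333 for *Rbbp4* and *C77080*. It was 0.308 for *Ezh2* and *Cul1*, 0.286 for *Suz12* and *Crlf3*, 0.270 for *Aebp2* and *Plekha5*, and 0.125 for *Suz12* and *Utp6*. *Eed* and *Ccdc81* reached 0.143, and *Mtf2* reached 0.0909 with *Evi5* and 0.0667 with *Ccdc18*. These shares describe Input alone, over bins that were listed.

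Other genes of the Polycomb complexes 1 and 2 and the demethylase genes of the mark did not share one direction. Of 19 such genes 12 were in both tables, 2 were called lower, 2 higher and 8 neither, where 21.9% of all shared pcRNAs were lower and 20.2% higher, with a median log2 ratio of 0.130. The demethylase gene *Kdm6a* had 376 and 172 pairs (-1.16, from -1.43 to -0.90), and *Lcorl* had 202 and 118 (-0.81, from -1.15 to -0.47). The other demethylase gene, *Kdm6b*, had 9 and 25 pairs (1.44, from 0.29 to 2.73), and *Pcgf6*, of a Polycomb repressive complex 1 variant, had 12 and 23 (0.91, from -0.16 to 2.05). *Epop*, *Ring1* and *Bmi1* were in neither table, *Cbx8* was in H3K27me3-RADIP alone, and *Pcgf1* and *Pcgf2* were in Input alone.

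*Jarid2*, the PRC2 cofactor gene left out of the members, had 7046 pairs in Input against 7961 in H3K27me3-RADIP, a log2 ratio of 0.14 (0.10 to 0.19), more pairs in either table than the 10 members together.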

How the data were processed

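The merged Input and H3K27me3-RADIP tables were used. The authors split reads at the bridge adaptor, mapped the tags to mm10 with BWA, kept unique pairs, removed DNA tags in blacklisted regions, annotated RNA tags with GENCODE, merged the libraries and kept combinations of an RNA and a 25-kb bin with a *q*-value of at most 0.1. The values that the authors deposited are the p-values, not used here, and q-values of their modified CHiCANE model, adjusted by Benjamini–Hochberg. Lines were counted per RNA name, and 2 tables without replicates allow no test of measured replicate variation. The TMM factors over shared pcRNAs were 1.026 for Input and 0.975 for H3K27me3-RADIP (trims of 30% and 5%). Called means a log2 ratio of at least 0.5 in size. Ratios have exact Clopper–Pearson intervals, shares Wilson intervals and differences of shares Newcombe intervals. These cover counting error only, as amplified copies cannot be told from molecules. Distances were taken between tag centres, and gene positions from GENCODE M21. Calculations used Python 3.11.15, numpy 2.4.6, pandas 2.3.3 and scipy 1.17.1, figures matplotlib 3.10.9. The steps over all RNAs were tested on simulated data.

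The members and lists were chosen with earlier results of these data known. Named were all members, called genes of the list of other Polycomb and H3K27 demethylase genes and *Jarid2*, genes starting in the 3 outside bins with the most pairs, the 2 RNAs with the most like bins, neighbours within 500 kb with at least 20 pairs, and RNAs over member starts; other names were added after their values were seen. Some genes that this rule covers are not reported here. Alternatives were 2 scalings, a *q*-value limit of 0.01, repeated positions counted once, gene identifiers, shared combinations, DNA tags outside the gene, intronic tags, an exact negative binomial test, a log2 limit of 1, distance to the gene end, equal weights and leaving out *Mtf2*. The ratio without *Mtf2*, the background of RNAs with at least 50 pairs and the call by interval were added after the data were seen. Pairs above the authors' limit were not analysed here.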

Additional observations from a re-analysis of the deposited data

How the results depend on the processing

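The pooled log2 ratio of the members stayed below 0 in all 9 settings, from -0.79 to -0.54. The latter, with scaling by *cis* pairs within 25 kb, lies outside the interval of the reported value, and 5 members were then called lower. Without *Mtf2* the ratio was -0.59. Members called lower numbered 4 to 6 in the other scalings, filters and subsets of pairs, where 13.3% (shared combinations) to 28.4% (DNA tags outside the gene) of all pcRNAs were. They numbered 1 (*Eed*) at a log2 limit of 1, passed by 7.77%, and in the exact negative binomial test 4, 0 and 0 at an assumed coefficient of variation of 0.1, 0.2 and 0.4. Of all shared pcRNAs that test called 7.51%, 0.797% and 0% lower. At an assumed 0.1 it called 2 of the other Polycomb and H3K27 demethylase genes, against 4 by size alone, at 0.2 and 0.4 it called 0, and a log2 limit of 1 called 2. Of 64 recomputed ratios of single members 59 were below 0, and 7 left the interval of the reported value.

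The median distance in Input and H3K27me3-RADIP was 0 and 3.41 kb when taken to the nearer gene end, 12.6 and 14.7 kb at a *q*-value limit of 0.01, 13.3 and 14.1 kb with equal weights, and 14 and 14.2 kb without *Mtf2*. The difference in the share over 100 kb was 1.54 points with equal weights and turned to -1.20 points without *Mtf2*. The intronic share differed by 0.265 and 1.27 points with repeated positions counted once and without *Mtf2*, within its interval.

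No paired analysis was possible because the authors merged the replicates before depositing the tables, and leaving out a replicate was not run for the same reason. Combinations under the limit of the tables have no value, and *Phf19* (10 and 11 pairs per bin) and the far bins of *Mtf2* (8 to 13) lay close to it.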
